A study of Mus musculus with 49 samples.

Results

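The glucocorticoid receptor gene Nr3c1, 4 genes that the receptor is known to switch on (Fkbp5, Sgk1, Zbtb16 and Tsc22d3) and Serpina6, the gene of the plasma carrier of corticosterone, were followed in mouse liver after a toxic dose of acetaminophen (APAP, paracetamol). They were chosen as the 18 probe sets that the array's annotation assigns to 1 of these 6 symbols alone, out of 34945 probe sets with a single symbol (18193 genes) and 45037 probe sets in all. Nr3c1 has 6 of them, Tsc22d3 4, Fkbp5 3, Zbtb16 3, Sgk1 1 and Serpina6 1. A probe set is a group of short array probes that together report 1 transcript, and its value is a level on a log2 scale, so that a difference of 1 is a 2-fold change.

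The samples were livers of male C57BL6/N mice on Affymetrix mouse genome arrays, 49 arrays in 10 groups. Each group has 5 arrays, except for 6 h with 4. The control group is labelled as having had no treatment. The others received 1 intraperitoneal injection of 300 mg/kg APAP in warm phosphate-buffered saline and were taken at 1, 6 or 12 h (hours) or at 1, 2, 4, 6, 8 or 16 d (days). Treated mice fasted overnight before the dose and had free access to food after it. The sources used here do not say whether control mice fasted or received vehicle, nor at what hour of the day any group was killed, and the 16 d group is known from its labels alone. Replicate numbers are given, but nothing states that 1 array stands for 1 mouse. The p-values therefore rest on array-to-array spread alone, and this may be technical.

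The glucocorticoid receptor is a transcription factor that waits in the cytoplasm, bound to heat shock proteins and their partners, until corticosterone binds it. It then enters the nucleus, where it binds DNA as a dimer at paired short sequences and raises or lowers the transcription of nearby genes. In the liver it is known for driving glucose production and amino acid breakdown during fasting and for restraining inflammation, and Fkbp5 feeds back on it by lowering its affinity for the hormone.

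The classical binding element consists of the hexamer AGAACA, any 3 bases, and TGTTCT, which is the same hexamer read on the other strand. It was searched in the 250 bases before each annotated start (RefSeq, build GRCm38.p6), which were at hand for 6 starts of Sgk1, 3 of Tsc22d3 and 1 of Fkbp5. The windows of 4 of these 10 starts held a hexamer on either strand, and 16.1% of all 32851 promoter windows did. The whole element was in 1 of the 10, and 3 of the 32851 windows held it (0.00913%). The Sgk1 window with the whole element and the Tsc22d3 window with a hexamer are shown because these genes moved in opposite directions at 12 h and 1 d. Capitals mark the hexamers, in Sgk1 with the 3 bases between them.
Sgk1, chr10:21993640-21993889, plus strand: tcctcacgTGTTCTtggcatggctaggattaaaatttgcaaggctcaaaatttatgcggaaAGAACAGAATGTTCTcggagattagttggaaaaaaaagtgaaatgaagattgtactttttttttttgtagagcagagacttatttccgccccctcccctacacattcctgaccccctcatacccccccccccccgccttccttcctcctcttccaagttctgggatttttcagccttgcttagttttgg
Tsc22d3, chrX:140600523-140600772, minus strand: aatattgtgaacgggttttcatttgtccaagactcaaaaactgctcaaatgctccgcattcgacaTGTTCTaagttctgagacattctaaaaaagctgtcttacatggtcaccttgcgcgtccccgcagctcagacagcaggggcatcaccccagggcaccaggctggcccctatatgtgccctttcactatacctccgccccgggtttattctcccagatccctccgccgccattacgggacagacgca
The Sgk1 window lies downstream of the outermost annotated Sgk1 start, before an inner one, and its paired element begins 189 bases before that start, with another hexamer 242 bases before it. The Tsc22d3 hexamer begins 185 bases before the outermost of that gene's 3 starts. Of the 6 Sgk1 windows 3 held a hexamer, and of the 3 Tsc22d3 windows 1 did. A match is only a string of letters, and no binding was measured here. Whether such matches bear on the direction of change was not tested.

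Not every array held every probe set. Values for all of them were at hand for 25 arrays (1 h and 12 h, and days 1, 2 and 16), called complete here. On the other 24 (control, 6 h, and days 4, 6 and 8) 8137 were, and these are shared by all arrays. Of the members, 6 probe sets of 5 genes were on all arrays and could be compared with control, and 12, among them that of Serpina6, were compared with the 1 h group. Array means lay between 6.03 and 6.33, and control replicate 3, 1 h replicate 3 and 16 d replicate 4 had a narrower spread of values (SD at most 2.26, against at least 2.40 on the others). The hepatocyte genes Apoa1 and Serpina1b averaged 13.88 to 14.00 in every group, near the top of the scale (14.41), and markers of T and NK cells averaged 4.48 to 4.75.

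Against control, 15 of 54 tests on the 6 shared probe sets passed an adjusted p of 0.05 (limma, Benjamini-Hochberg over all 8137 probe sets). Sgk1 rose at 4 times, Zbtb16 rose at 4, Fkbp5 rose at 2 and fell at 3, Tsc22d3 fell at 2, and Nr3c1 passed at no time. By time, 1 of 6 passed at 1 h, 3 at 6 h, 3 at 12 h, 4 at 1 d and 1 each at 2 d, 4 d, 8 d and 16 d. Among all probe sets 0.578% passed at 1 h, 5.42% at 6 h, 22.8% at 12 h, 28.8% at 1 d, 31.8% at 2 d, 15.2% at 4 d, 7.47% at 6 d, 7.19% at 8 d and 5.89% at 16 d. At 6 d no member passed in limma, with 2 of 6 at an unadjusted p under 0.05. Where only control and the time compared entered the fit, 9 of the 54 passed.

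**Figure D1:**
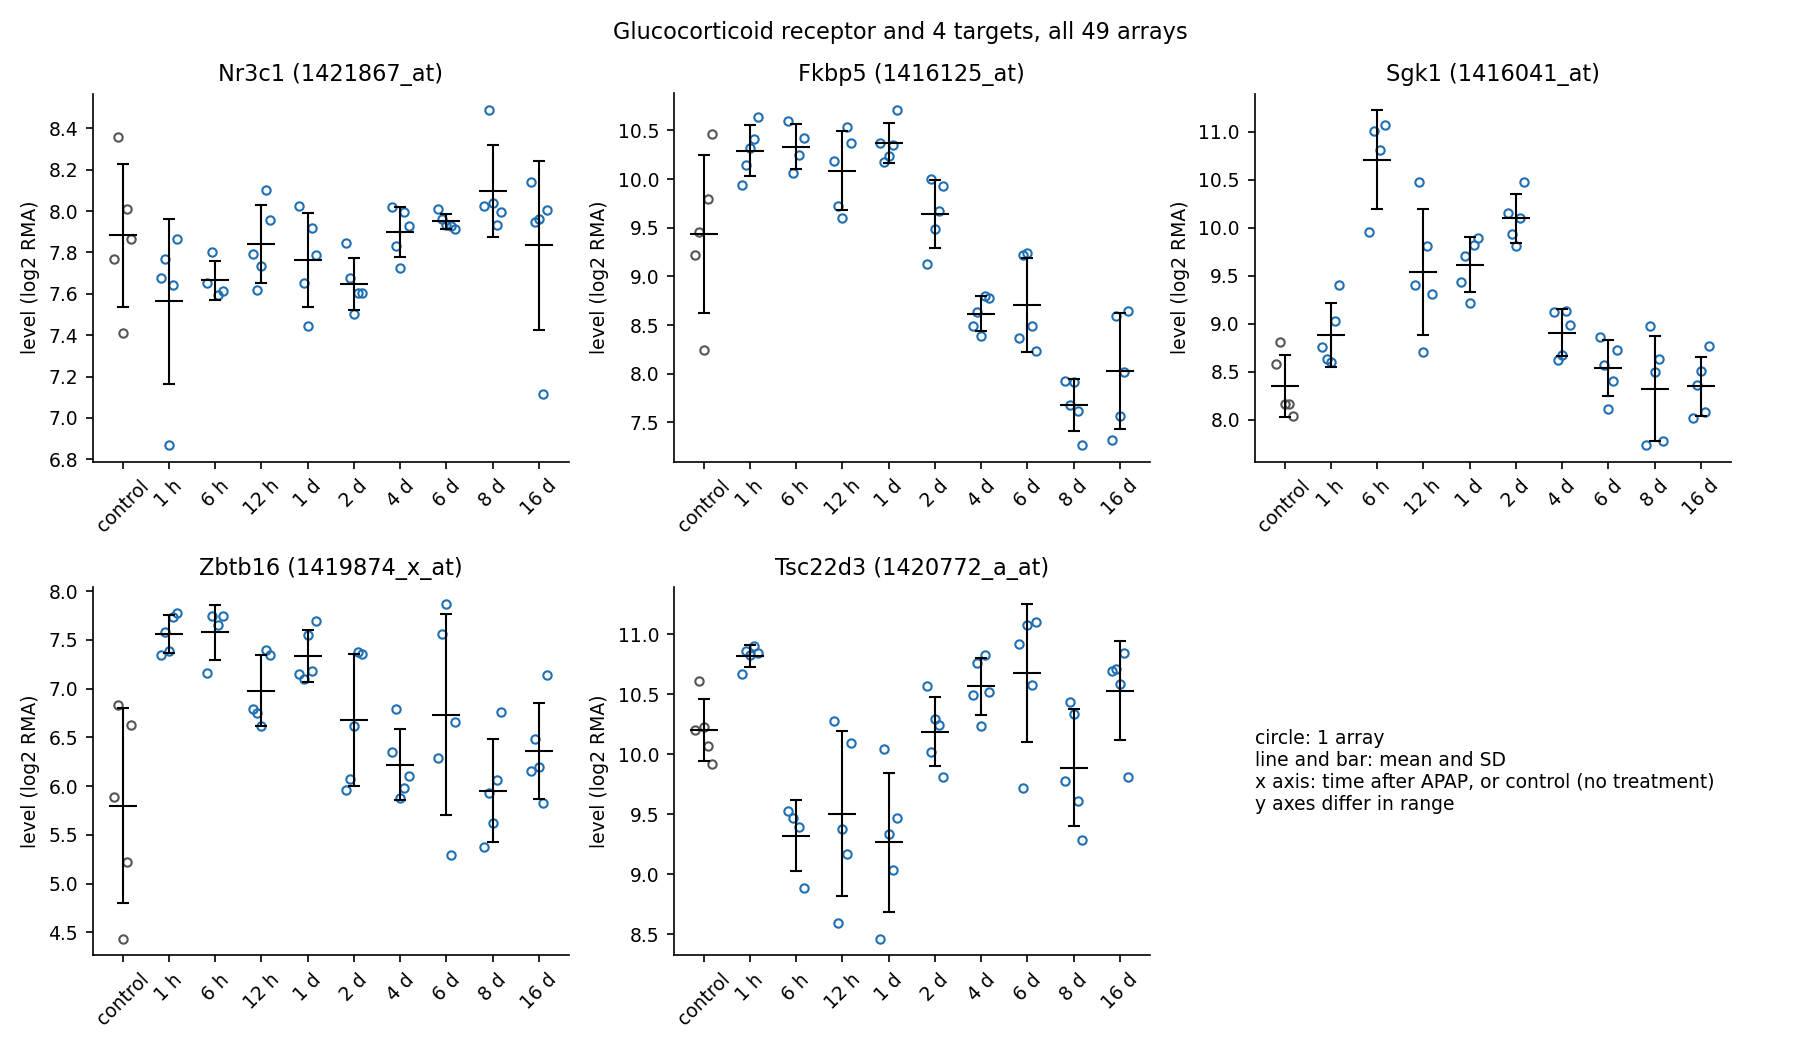
Level (log2) of Nr3c1, Fkbp5, Sgk1, Zbtb16 and Tsc22d3 on each of the 49 arrays, by group, with the group mean (line) and SD (bar); the vertical axes differ in range. Sgk1 stands highest at 6 h with a second high at 2 d, Fkbp5 falls below its control mean from 4 d on, and Tsc22d3 is lowest between 6 h and 1 d.

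The transcript of the receptor itself showed no difference from control that passed the test. Its probe set 1421867_at read 7.77, 8.36, 7.41, 8.01 and 7.86 on the control arrays, and group means between 7.56 (1 h) and 8.10 (8 d). All groups overlapped with control. Over 1421867_at and the dimmer 1421866_at, the 18 differences ran from −0.56 to 0.28 with adjusted p from 0.258 to 0.977, and 1 of 18 had an unadjusted p under 0.05. The 95% intervals of 1421867_at stayed within −0.63 and 0.53, which spans less than a 2-fold change either way, while those of 1421866_at ran from −1.21 to 0.93. At 2 d 1421867_at read 7.84, 7.68, 7.50, 7.60 and 7.60, a difference of −0.24 ± 0.16 (SE, adjusted p = 0.258 in limma). It passed as −0.46 after quantile normalization (adjusted p = 0.000803) and after centring each array on its median (−0.46, adjusted p = 0.00704). With array weights (−0.27, adjusted p = 0.0399) and without the narrow arrays (−0.35, adjusted p = 0.0122) it passed as well.

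The other Nr3c1 probe sets were measured on the complete arrays. The brightest, 1460303_at, averaged 8.12 at 1 h, 8.35 at 12 h, 8.32 at 1 d, 8.30 at 2 d and 8.56 at 16 d. None of 24 tests over the 6 probe sets against 1 h passed in limma (2 at an unadjusted p under 0.05). The largest difference of 1460303_at was 0.45 ± 0.17 at 16 d (adjusted p = 0.284 in limma). It passed after quantile normalization (0.42, adjusted p = 0.03) and without 16 d replicate 4 (0.60, adjusted p = 0.0357). Array weights (0.42, adjusted p = 0.00642) and leaving out the narrow arrays (0.41, adjusted p = 0.0315) made it pass as well. At 1 h this probe set read 8.43, 8.22, 7.34, 8.23 and 8.36, and the low value belongs to the narrow array. Group means were 5.10 to 5.53 for 1453860_s_at and 6.17 to 6.67 for 1457635_s_at, whose names mark probes shared between transcripts. Levels of 1431378_at lay between 3.59 and 4.65.

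Fkbp5, the immunophilin co-chaperone that lowers the receptor's hormone affinity, was high for the first day and low from day 4. Control arrays spread widely, at 9.21, 9.45, 8.25, 9.79 and 10.46. At 1 d the arrays read 10.37, 10.18, 10.23, 10.35 and 10.71, and at 8 d 7.93, 7.68, 7.91, 7.62 and 7.27. All 5 arrays of 1 d lay above 4 of the 5 control arrays, and all 5 of 8 d lay below every control array.

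Fkbp5 rose by 0.93 ± 0.26 at 1 d (1.91-fold, adjusted p = 0.00528) and by 0.90 ± 0.28 at 6 h (adjusted p = 0.044). The differences at 1 h (0.86 ± 0.26, adjusted p = 0.201) and 12 h (0.65 ± 0.26, adjusted p = 0.0655) did not pass. Control replicate 5 bears on both: without it the differences were 1.12 at 1 h (adjusted p = 0.0206) and 0.91 at 12 h (adjusted p = 0.00764). The 6 h call was lost when any of 7 single arrays was left out, the most without control replicate 3 (0.60, adjusted p = 0.2), and with array weights both 6 h (0.58, adjusted p = 0.177) and 1 d (0.65, adjusted p = 0.0905) missed the threshold. In fits of control and 1 time alone, 6 h (adjusted p = 0.256), 1 d (adjusted p = 0.0626), 4 d (adjusted p = 0.124) and 16 d (adjusted p = 0.0822) did not pass, while 8 d did.

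The later fall of Fkbp5 reached −1.75 ± 0.26 at 8 d (3.37-fold lower, adjusted p = 6.38e-06) and −1.41 ± 0.26 at 16 d (2.66-fold lower, adjusted p = 0.000251). Its 16 d arrays read 7.31, 8.59, 7.56, 8.01 and 8.64, of which 2 lie above the lowest control array. At 4 d the difference was −0.82 ± 0.26 (adjusted p = 0.0261), a call that ended without control replicate 5 (−0.56, adjusted p = 0.147), control replicate 4, 4 d replicate 1 or 4 d replicate 3. At 6 d the difference was −0.72 ± 0.26 (adjusted p = 0.0845), and it passed without 6 d replicate 3 (−0.86, adjusted p = 0.0474) or control replicate 3 (−1.02, adjusted p = 0.00487). From 2 d to 4 d the level changed by −1.02 ± 0.26 (adjusted p = 0.00359) with no overlap between the arrays of the 2 days. A second Fkbp5 probe set on the complete arrays, 1448231_at, went from 8.57, 8.69, 8.58, 9.21 and 8.90 at 1 h to 6.15, 7.31, 6.33, 6.97 and 7.43 at 16 d, a fall of −1.95 ± 0.23 (adjusted p = 3.06e-05). Another, 1447736_at, stayed between 2.28 and 4.41, with group medians of 2.61 to 2.83 that lie in the lowest 10% of all values on these arrays (under 2.88).

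Sgk1, a kinase that regulates ion channels and transporters and answers to glucocorticoids as well as to cell stress and cytokines, had the largest differences of the members with control values. Control arrays read 8.58, 8.81, 8.16, 8.17 and 8.04, and the 6 h arrays 9.96, 11.01, 10.81 and 11.07, all above every control array. The rise at 6 h was 2.36 ± 0.26 (5.13-fold, adjusted p = 6.67e-09). It was 1.19 ± 0.24 at 12 h (adjusted p = 0.000238), 1.26 ± 0.24 at 1 d (adjusted p = 6.78e-05) and 1.75 ± 0.24 at 2 d (adjusted p = 1.59e-07).

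The course of Sgk1 had a peak at 6 h and high values again at 2 d. From 1 h to 6 h it rose by 1.83 ± 0.26 (adjusted p = 3.1e-06), and from 6 h to 12 h it fell, −1.17 ± 0.26 (adjusted p = 0.00233). At 12 h the arrays ranged widely, at 9.40, 10.48, 8.71, 9.81 and 9.31, and at 2 d narrowly, at 10.16, 9.94, 9.81, 10.10 and 10.48. The step from 1 d to 2 d was 0.48 ± 0.24 and did not pass (adjusted p = 0.215). From 2 d to 4 d it fell, −1.19 ± 0.24 (adjusted p = 0.000279, no overlap), and at 8 d and 16 d its means were 8.33 and 8.35, against 8.35 in control. Myofibroblast and macrophage markers also stood high at 2 d: 4 of 5 stellate cell and myofibroblast genes and 4 of 4 monocyte and macrophage genes were higher than control. Among all probe sets 31.8% passed at 2 d, in either direction. List means per array were 6.84 to 7.45 against 4.60 to 5.22, and 7.49 to 8.41 against 6.37 to 6.71. At 6 h, where Sgk1 was highest, the means were 4.87 to 4.97 for the first list and 6.20 to 6.96 for the second. Neutrophil markers averaged 5.90 to 6.53 per array at 6 h, against 5.04 to 5.72 in control. Endothelial markers averaged 5.43 to 6.15 at 6 h and 5.73 to 6.42 at 2 d, against 5.13 to 5.46 in control. Markers of T and NK cells, B cells and bile duct cells overlapped with control at 6 h. The part of any of these cells in the 6 h or 2 d level was not tested. In whole tissue more cells of a type and more RNA per cell cannot be told apart.

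Sgk2, a paralog of Sgk1, went the other way. It fell by 0.68 at 12 h, and its differences at 1 d and 2 d were −1.54 (adjusted p = 8.86e-07) and −1.54 (adjusted p = 6.26e-07). Sgk3 passed once, at 2 d (0.73, adjusted p = 0.00197).

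Zbtb16 (PLZF), a zinc finger transcription repressor and one of the most strongly glucocorticoid-inducible genes in many cells, was the 1 member that passed at 1 h. Control arrays read 5.89, 6.84, 4.44, 5.22 and 6.63, and those of 1 h 7.35, 7.58, 7.39, 7.73 and 7.78, with no overlap. The rise was 1.76 ± 0.36 (3.39-fold, adjusted p = 0.00504). It was 1.78 ± 0.38 at 6 h (adjusted p = 0.00169, no overlap), 1.18 ± 0.36 at 12 h (adjusted p = 0.0138) and 1.53 ± 0.36 at 1 d (adjusted p = 0.000964, no overlap).

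Control replicate 3, a narrow array, was the lowest for Zbtb16. Without it the 12 h difference was 0.84 and did not pass (adjusted p = 0.0828). In the fit of control and 1 h alone the 1 h rise missed the threshold (adjusted p = 0.088). At 6 d its arrays scattered between 5.30 and 7.87, with a difference from control of 0.93 ± 0.36 (adjusted p = 0.116) that passed without 6 d replicate 4 (1.29, adjusted p = 0.0155) or control replicate 2 (1.19, adjusted p = 0.0365). At 2 d it was 0.87 ± 0.36 (adjusted p = 0.059), and it passed without 2 d replicate 1 or 2 or control replicate 2 or 5 (1.02 to 1.13). The name of this probe set, 1419874_x_at, marks probes that may also match other transcripts. The brighter Zbtb16 probe set without that mark, 1439163_at, read 7.51, 8.14, 7.28, 8.19 and 8.45 at 1 h and 6.46, 6.35, 6.55, 7.55 and 7.61 at 2 d. This fall of −1.01 ± 0.31 (adjusted p = 0.0231) missed the threshold when any of 5 single arrays was left out (−0.87, adjusted p = 0.0628, without 2 d replicate 2). At 16 d 1439163_at differed from 1 h by −1.16 ± 0.31, which did not pass (adjusted p = 0.0608) but did without 16 d replicate 5 (−1.39, adjusted p = 0.0197) or 1 h replicate 3 (−1.32, adjusted p = 0.0355). The dimmer 1427638_at, also without that mark, averaged 5.55 to 5.93 and did not pass.

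**Figure D2:**
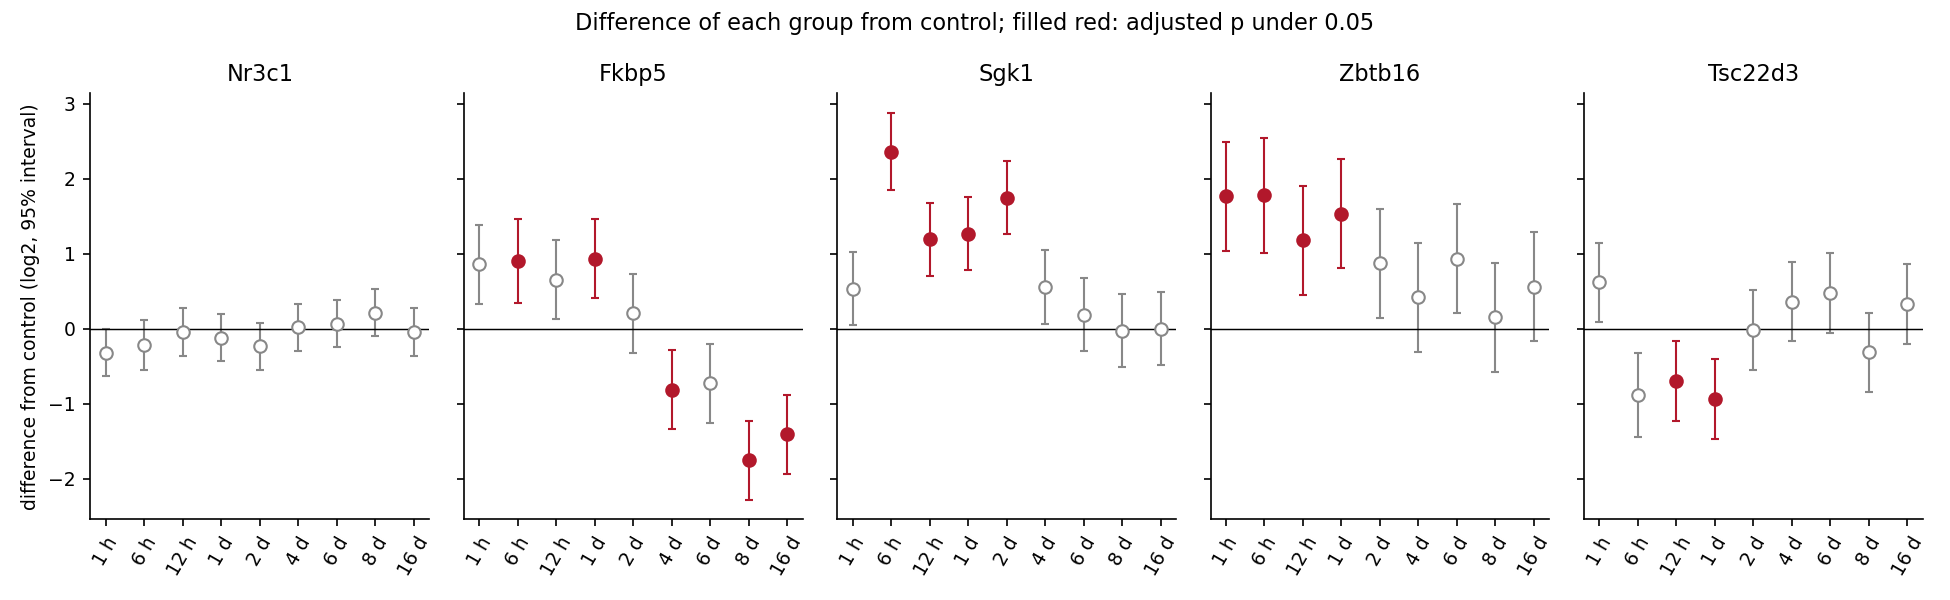
Difference of each time from control (log2, limma) for the brightest shared probe set of 5 genes, with 95% intervals; filled red points have an adjusted p under 0.05. Sgk1 and Zbtb16 lie above 0 in the first day, Fkbp5 crosses from above to below 0, Tsc22d3 lies below 0 from 6 h to 1 d, and the intervals of the Nr3c1 probe set 1421867_at stay within −0.63 and 0.53.

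Tsc22d3 (GILZ), a leucine zipper protein that carries part of the anti-inflammatory action of glucocorticoids, fell while Sgk1, Fkbp5 and Zbtb16 were high. Its control arrays read 10.21, 10.61, 10.23, 10.07 and 9.92. At 1 h they were 10.67, 10.86, 10.82, 10.91 and 10.85, all above control, although the difference of 0.62 ± 0.26 did not pass (adjusted p = 0.651). At 6 h they were 9.53, 9.47, 9.39 and 8.89, all below control. That difference, −0.88 ± 0.28, missed the threshold narrowly (adjusted p = 0.0521 in limma). It passed under 6 of 9 alternatives, among them the fit of these 2 groups alone (adjusted p = 0.0136) and array weights (−0.85, adjusted p = 0.0204). Of 9 single arrays left out in turn, 1 made it pass. Against 1 h the fall at 6 h was −1.50 ± 0.28 (2.83-fold, adjusted p = 0.000355).

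The fall of Tsc22d3 against control was −0.70 ± 0.26 at 12 h (adjusted p = 0.0483) and −0.94 ± 0.26 at 1 d (1.91-fold lower, adjusted p = 0.0056). The 12 h call was lost when any of 7 of the 10 arrays was left out: without 12 h replicate 2, the lowest at 8.60, it was −0.47 (adjusted p = 0.225). From 1 d to 2 d the level rose by 0.92 ± 0.26 (adjusted p = 0.0134), to 10.57, 10.02, 10.29, 10.25 and 9.81. From 2 d on group means lay between 9.89 and 10.68, with differences from control of −0.32 to 0.47 and adjusted p from 0.341 to 0.968.

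A second Tsc22d3 probe set had the same course on the complete arrays. Its levels (1425281_a_at) were 9.92, 10.13, 9.98, 10.30 and 10.00 at 1 h, 9.66, 7.67, 8.67, 8.04 and 9.29 at 12 h, and 7.69, 9.21, 8.63, 8.31 and 8.78 at 1 d. No array of 12 h or 1 d reached the lowest of 1 h. The differences were −1.40 ± 0.30 (adjusted p = 0.00277) and −1.54 ± 0.30 (adjusted p = 0.000783). The dimmer 1425557_x_at differed by −0.70 ± 0.15 at 1 d (adjusted p = 0.00169) and −0.43 ± 0.15 at 2 d (adjusted p = 0.0415, lost as −0.36 after median centring and without any of 6 single arrays), and 1444365_at, near 4.10, did not pass. Of its paralogs, Tsc22d2 rose by 2.60 at 12 h (adjusted p = 0.000227) and 1.45 at 1 d (adjusted p = 0.0213), and Tsc22d1 rose at 16 d (1.19, adjusted p = 0.0062).

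Between neighbouring times, 6 of 48 tests on the shared probe sets passed. The 6 are the changes of Sgk1 and Tsc22d3 from 1 h to 6 h (3.93% of all probe sets passed), of Sgk1 from 6 h to 12 h (8.34%), of Tsc22d3 from 1 d to 2 d (13%), and of Sgk1 and Fkbp5 from 2 d to 4 d (17.9%). None passed from 12 h to 1 d (4.82%), 4 d to 6 d (2.18%), 6 d to 8 d (0%) or 8 d to 16 d (0.0123%) in limma, with 0, 0, 3 and 1 of 6 at an unadjusted p under 0.05. From 6 d to 8 d Fkbp5 differed by −1.03 ± 0.26 without overlap of the arrays, at an unadjusted p = 0.000293 and an adjusted p = 0.746.

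Serpina6 (corticosteroid-binding globulin), which hepatocytes secrete and which carries most corticosterone in plasma, showed the largest changes of all members. It read 9.51, 9.75, 8.87, 9.89 and 9.20 at 1 h, 5.65, 7.07, 5.53, 6.18 and 6.51 at 12 h, and 5.20, 4.79, 4.67, 4.65 and 4.52 at 1 d. The highest array of 12 h or 1 d, at 7.07, lay below the lowest of 1 h, at 8.87. At 2 d the arrays were spread over 8.96, 5.10, 8.58, 7.53 and 6.15, and at 16 d they read 10.34, 9.72, 10.22, 9.39 and 10.39.

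Against 1 h the fall of Serpina6 was −3.25 ± 0.49 at 12 h (9.55-fold lower, adjusted p = 6.25e-05), −4.68 ± 0.49 at 1 d (25.6-fold lower, adjusted p = 3.4e-07) and −2.18 ± 0.49 at 2 d (adjusted p = 0.00212). From 1 d to 2 d it rose by 2.50 ± 0.49 (adjusted p = 0.00198, where 5.59% of all probe sets passed), though 2 d replicate 2 at 5.10 lay below the highest array of 1 d. The difference at 16 d was 0.57 ± 0.49 with a 95% interval from −0.43 to 1.57 (adjusted p = 0.876). As no control array held this probe set, its level without APAP was not analysed here. Of 8 hepatocyte marker genes on the same arrays, 2 were lower and 1 higher at 1 d than at 1 h. Among all probe sets 18% passed in that comparison. The list means per array were 12.51 to 12.78 at 1 d against 12.77 to 12.92 at 1 h.

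Genes beside Serpina6 in the serpin A cluster gave 4 calls against 1 h, all of them upward. Of 8 measured, 1 was higher at 12 h, 1 at 1 d and 2 at 16 d. Among all 45037 probe sets 13.7% passed at 12 h, 18% at 1 d and 1.7% at 16 d, in either direction. At 2 d, where these genes gave no call, 23% did. Serpina3n, an acute phase protein, was higher at 1 d (0.94, adjusted p = 0.032), Serpina9 at 12 h (2.76, adjusted p = 4.28e-07) and at 16 d (1.49, adjusted p = 0.00371), and Serpina12 at 16 d (2.13, adjusted p = 0.00301). Whether Serpina6 differs from these genes was not tested.

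Over the 12 probe sets without control values, 9 of 48 tests against 1 h passed, all of them lower. They are 2 at 12 h, 3 at 1 d, 3 at 2 d and 1 at 16 d, where 13.7%, 18%, 23% and 1.7% of all 45037 probe sets passed. With 1 probe set for each gene, the brightest, only those of Serpina6, Zbtb16 and Nr3c1 remained here, and 5 of their tests passed. The brightest ones of Fkbp5 and Tsc22d3 have control values and are not in this count.

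**Figure D3:**
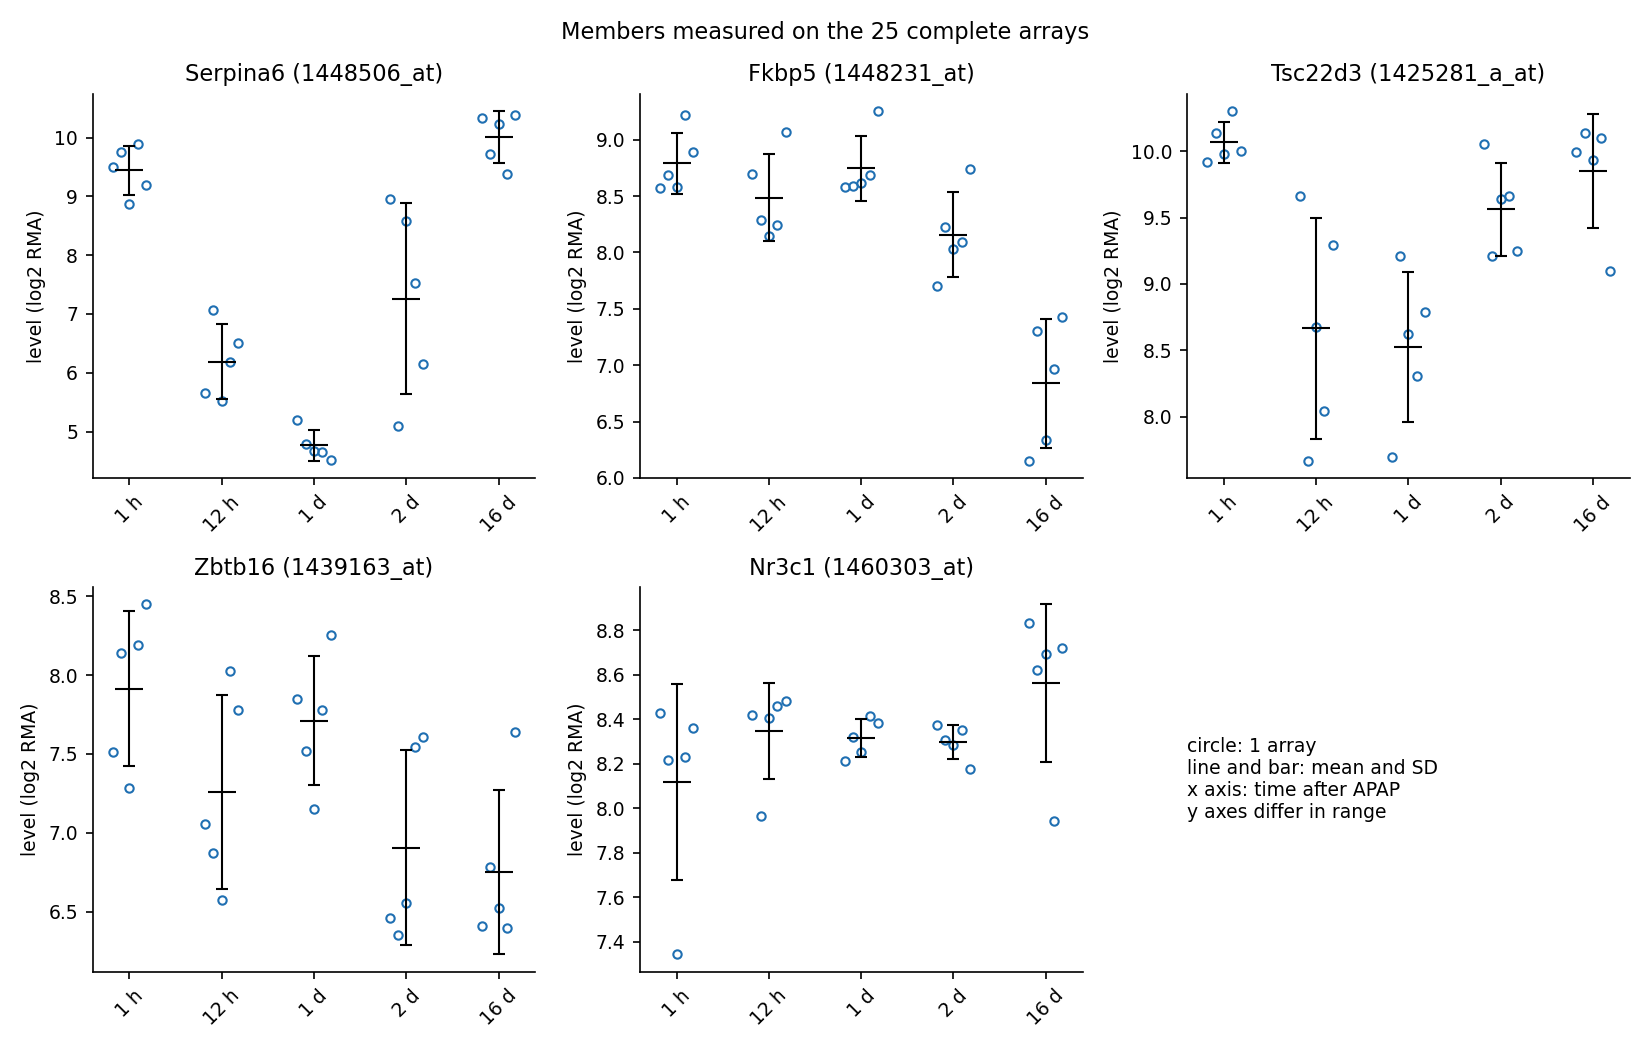
Level (log2) of Serpina6 and of further probe sets of Fkbp5, Tsc22d3, Zbtb16 and Nr3c1 on the 25 complete arrays, by time after APAP, with mean (line) and SD (bar); the vertical axes differ in range. Serpina6 falls from 9.44 at 1 h to 4.76 at 1 d, and its 2 d arrays spread from 5.10 to 8.96.

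Few pairs of members deviated together from array to array. Deviations of each array from its group mean were correlated for every pair of genes, with two-sided p from 100000 permutations within groups. Over 49 arrays and 10 pairs, the strongest pair was Fkbp5 with Zbtb16, at Pearson r = 0.51 (permutation p = 0.00803, adjusted p = 0.0803) and Spearman rho = 0.41 (permutation p = 0.0169, adjusted p = 0.152). Without control replicates 3 and 5, the arrays farthest out for Fkbp5, r was 0.36. On the 25 complete arrays, with the Zbtb16 probe set 1439163_at, the same pair gave r = 0.66 (permutation p = 0.00123, adjusted p = 0.0185 over 15 pairs) and rho = 0.62 (permutation p = 0.0032, adjusted p = 0.0364), and r = 0.62 without the 2 farthest arrays. Zbtb16 with Sgk1 gave r = 0.50 (permutation p = 0.024, adjusted p = 0.18) and rho = 0.60 (permutation p = 0.00486, adjusted p = 0.0364). That rho did not pass after quantile normalization (0.51, permutation p = 0.0175, adjusted p = 0.131) or without the narrow arrays (0.57, permutation p = 0.0118, adjusted p = 0.0885). No other pair passed by either measure. Nr3c1 with its targets gave r between 0.04 and 0.32 over the 49 arrays, and Tsc22d3 with Fkbp5, Zbtb16 and Sgk1 between −0.15 and −0.09.

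Genes most like each member across arrays were found by Pearson r of levels, as a description that includes the shared differences between groups. For Fkbp5 they were Gde1 (0.92 over 49 arrays), Ncoa4 (0.83) and Pole4 (0.82). Sgk1 was nearest to Osmr, the oncostatin M receptor (0.83), Enc1 (0.79) and Cdkn1a (0.79), and Zbtb16 to Sirt1 (0.67), Cebpd (0.66) and Fkbp5 (0.66). Tsc22d3 was nearest to Akr1c6 (0.75), Sdc2 (0.74) and Mtarc2 (0.73), and over the 25 complete arrays to Klf15 (0.95), Mtarc2 (0.94) and Txndc15 (0.92). Serpina6 was nearest to Rgn (0.98), Aldh7a1 (0.95) and Inmt (0.95) over those 25. For Nr3c1 the genes were Cpsf1 (0.80), Tcta (0.79) and Kctd20 (0.79).

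Chaperones that hold the receptor ready for hormone gave calls upward at 6 h and 12 h, in both directions at 1 d and 2 d, and downward later. Of 9 measured, 1 was higher than control at 6 h, 3 at 12 h, 2 at 1 d and 1 at 2 d, and 2 were lower at 1 d, 1 at 2 d, 3 at 4 d, 4 at 8 d and 2 at 16 d. Among all 8137 probe sets 5.42% passed at 6 h, 22.8% at 12 h, 28.8% at 1 d and 31.8% at 2 d. The shares were 15.2% at 4 d, 7.19% at 8 d and 5.89% at 16 d, in either direction. Dnajb1, an Hsp40 co-chaperone, rose by 2.24 at 6 h (adjusted p = 7.35e-06) and by 3.19 at 12 h (adjusted p = 1.76e-10), and was below control at 8 d (−1.15, adjusted p = 0.017). Hspa8, the constitutive Hsp70, went from 0.54 at 12 h (adjusted p = 0.000635) to −0.75 at 8 d (adjusted p = 1.67e-05). Fkbp4, the paralog of Fkbp5 that helps the receptor reach the nucleus, passed once, at 1 d (−0.67, adjusted p = 0.0124). The list's median difference was 0.19 at 12 h and −0.26 at 8 d, against −0.05 and 0.00 over all genes. Hsp90aa1, an Hsp90 that binds the receptor directly, was higher at 12 h than at 1 h (1.34, adjusted p = 5.5e-07).

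Among coregulators, 5 were compared with control. Nrip1, a corepressor of nuclear receptors, rose at 6 h (1.12, adjusted p = 0.00854) and 12 h (1.08, adjusted p = 0.00206), and Med1, a mediator subunit, fell at 12 h (−0.41, adjusted p = 0.00826). The median over the list lay between −0.11 and 0.03 at all 9 times.

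Genes that activate or clear the hormone moved in both directions. Hsd11b1, which regenerates active corticosterone in hepatocytes, was lower than at 1 h by −0.48 at 12 h (adjusted p = 0.000614), −0.67 at 1 d (adjusted p = 7.77e-06) and −0.66 at 2 d (adjusted p = 6.44e-06). Akr1d1, the steroid 5-beta reductase, was lower at 12 h (−1.30, adjusted p = 0.0382) and at 1 d (adjusted p = 0.0013). Of 6 such genes compared with control, 2 were higher and 1 lower at 12 h, and 1 was higher and 2 were lower at 1 d, Akr1c6 among the latter (−1.35 at 1 d, adjusted p = 0.000441). Among all 8137 probe sets 22.8% passed at 12 h and 28.8% at 1 d. Abcb1a, an efflux pump, was higher from 12 h to 4 d, by 1.42 at 4 d (adjusted p = 8.54e-06).

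Of 14 metabolic genes known as glucocorticoid targets, 4 were higher than control at 1 h, 8 at 6 h, 6 at 12 h, 6 at 1 d, 7 at 2 d, 3 at 4 d, 4 at 6 d, 3 at 8 d and 3 at 16 d, and 1 was lower at 12 h, 1 d, 2 d and 4 d. The list's median was 1.16 at 6 h and 0.32 at 16 d, against −0.01 and 0.00 over all genes. Among all 8137 probe sets 0.578% passed at 1 h, 5.42% at 6 h, 22.8% at 12 h and 28.8% at 1 d. The shares were 31.8% at 2 d, 15.2% at 4 d, 7.47% at 6 d, 7.19% at 8 d and 5.89% at 16 d. Igfbp1, which binds insulin-like growth factors and rises in fasting, was higher at all 9 times, by 3.85 (8 d) to 5.89 (6 h and 2 d). Bcl6, a transcription repressor, was also higher at all 9, by 3.93 at 16 d (adjusted p = 3.08e-06). G6pc, the glucose-6-phosphatase of glucose output, was higher at 7 of the 9 times, by 2.32 at 1 h (adjusted p = 0.000763) and 2.90 at 16 d (adjusted p = 4.68e-06), with differences of −0.02 at 12 h and −0.10 at 1 d that did not pass. For these 3 genes the control group stood apart even from 16 d. The feeding state of control mice, which was not stated, cannot be told apart from the absence of the drug. This limit holds for every comparison of a member with control as well.

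Against 1 h, 9 of 24 metabolic targets were lower at 12 h, 9 at 1 d and 9 at 2 d, with 2, 1 and 1 higher, and 1 was higher at 16 d. The falls at 1 d included G6pc (−2.42, adjusted p = 0.000392), Klf15, a Krüppel-like factor of amino acid breakdown (−1.98, adjusted p = 0.000277), and Lpin1, a phosphatidate phosphatase (−1.45, adjusted p = 0.0246). The list's medians were −0.24, −0.37, −0.35 and −0.33 at 12 h, 1 d, 2 d and 16 d, against −0.08, −0.07, −0.08 and −0.01 over all genes. Among all 45037 probe sets 13.7%, 18%, 23% and 1.7% passed at those times. Cdkn1a, the cell cycle inhibitor p21, was higher at 12 h (1.81, adjusted p = 0.00466), 1 d (2.21, adjusted p = 0.000508) and 2 d (1.31, adjusted p = 0.0267).

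Other anti-inflammatory targets gave calls upward against control, where Tsc22d3 gave calls downward. Of 4 measured, 1 was higher at 1 h, 2 at 12 h, 2 at 1 d, 2 at 2 d, 1 at 6 d and 1 at 16 d, with medians of 0.54 at 12 h and 0.48 at 1 d. Among all probe sets 0.578% passed at 1 h, 22.8% at 12 h, 28.8% at 1 d and 31.8% at 2 d. The shares were 7.47% at 6 d and 5.89% at 16 d. Nfkbia, the inhibitor of NF-kappaB, was higher at 6 of the 9 times, by 1.02 at 1 h (adjusted p = 0.0106), and Il1r2, the decoy receptor for interleukin 1 that neutrophils also carry, at 12 h (1.71, adjusted p = 0.00344) and 1 d (1.89, adjusted p = 0.000873). The 3 neutrophil markers moved with it, from a list mean per array of 5.04 to 5.72 in control to 5.82 to 8.05 at 12 h and 6.12 to 7.98 at 1 d, and their part was not tested. On the complete arrays Dusp1, a phosphatase that shuts off MAP kinases, was lower than at 1 h at 2 d (−1.89, adjusted p = 0.00182) and 16 d (−2.24, adjusted p = 0.00301), and Anxa1, a mediator that dampens leukocyte entry, was higher at 2 d (3.46, adjusted p = 5.05e-10).

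**Figure D4:**
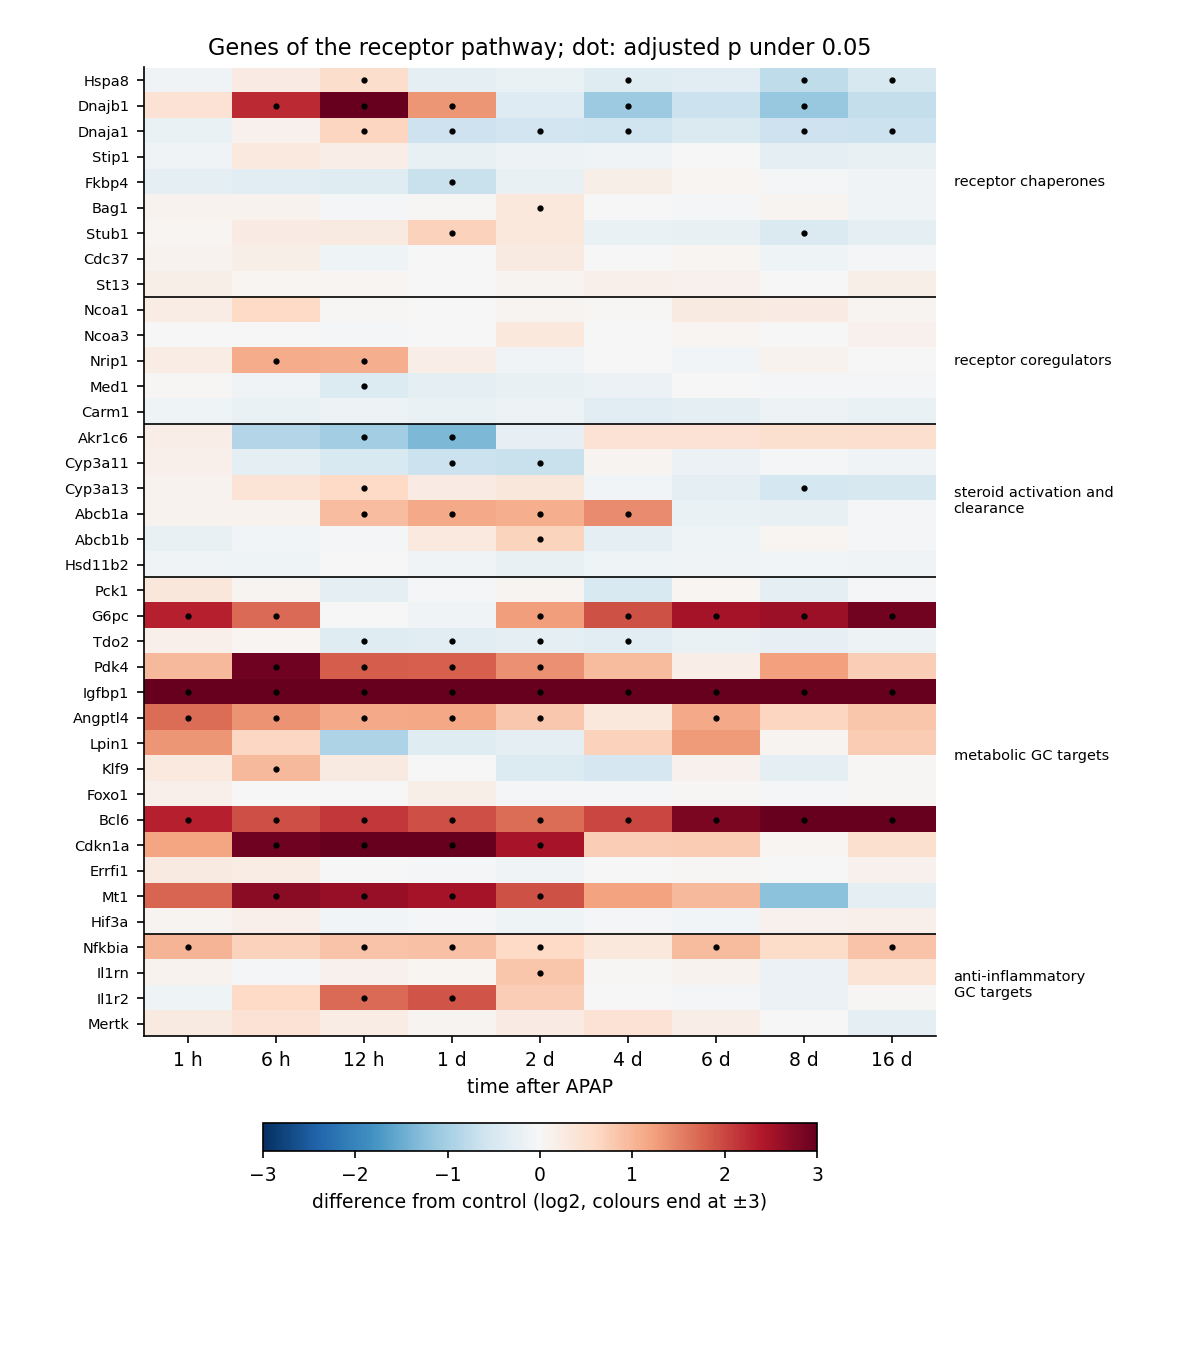
Difference from control (log2, colour, ending at ±3) of the 38 measured genes of 5 receptor pathway lists at 9 times; dots mark an adjusted p under 0.05. Igfbp1 and Bcl6 are marked at all 9 times, and Dnajb1 changes from higher at 6 h to 1 d to lower at 4 d and 8 d.

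Hormone levels and several of these genes follow the time of day, which the groups may not share. Of 9 clock genes compared with control, Dbp was lower at 1 d (−2.52, adjusted p = 0.00296) and 16 d (−2.27, adjusted p = 0.0271), Per2 at 1 d (−1.09, adjusted p = 0.00408), 8 d (−0.92, adjusted p = 0.0466) and 16 d (−1.39, adjusted p = 0.00152), and Nfil3 was higher from 6 h to 1 d, by 2.54 at 12 h (adjusted p = 1.9e-08). No plasma corticosterone was measured in the data used here, and the part of the clock genes' differences in those of the members was not tested.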

How the data were processed

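Levels are the authors' deposited log2 values of total liver RNA, made with oligo 1.52.0 and RMA per the submitters' processing notes. RMA by design corrects background, quantile normalizes and summarises each probe set. The sources used here do not say if RMA was run once over all 49 arrays. Values were taken as deposited, with the 64 control probe sets left out. Gene symbols came from the platform annotation, and promoter windows from RefSeq (GRCm38.p6).

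Group differences come from linear models (limma 3.58.1, R 4.3.3) with moderated two-sided tests (eBayes), 1 mean per group and Benjamini-Hochberg adjustment over all probe sets of a contrast (8137 on 49 arrays, 45037 on the 25 complete ones), called at an adjusted p under 0.05. Other lists used each gene's probe set with the highest mean. The fits were tested on simulated data. Correlations used numpy and scipy in Python. Arrays have no read depth, and their number limits the precision.

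All member probe sets are named, of each list up to 3 called genes a direction and time with the largest difference, and for each member the 3 genes nearest in r. Times at which such a gene did not pass were picked after the values were seen. The members and lists were chosen with earlier results of these data known. Replicate numbers were not used to pair arrays, except in 1 alternative. Alternatives were other normalizations, fits, filters and left-out arrays.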

Additional observations from a re-analysis of the deposited data

Results flagged for a closer look

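In 120 sets of 4 or 5 arrays (1 probe set in 1 group), 15 had a lowest or highest array set apart by more than Dixon's 95% limit, where chance gives about 1 in 20. Of the 15, 8 were Nr3c1 probe sets, and 7 lay on the narrow arrays 1 h replicate 3 and 16 d replicate 4. On 1 h replicate 3, Nr3c1 read 6.87 (1421867_at), 7.34 (1460303_at) and 5.16 (1457635_s_at), each the lowest of its group, and 4.58 (1431378_at), the highest. On 16 d replicate 4, Nr3c1 read 7.12 (1421867_at) and 7.94 (1460303_at), both lowest, and Fkbp5 4.09 (1447736_at), highest.

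Elsewhere Nr3c1 was highest on 8 d replicate 2 (8.49, 1421867_at) and lowest on 12 h replicate 2 (7.96, 1460303_at). Tsc22d3 was lowest on 16 d replicate 5, at 9.81 (1420772_a_at) and 9.09 (1425281_a_at). Zbtb16 was lowest on 6 h replicate 1 (7.16). Fkbp5 was highest on 1 d replicate 5 (9.25, 1448231_at), and its dim probe set 1447736_at was highest on 12 h replicate 1 (3.63) and 1 d replicate 1 (4.41).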

How the results depend on the processing

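Among the differences against control and 1 h, none was called in the opposite direction under any alternative run. Against control, 15 of 54 tests passed as reported, 9 when only the 2 groups compared entered it, 14 to 18 under the other alternatives that kept all arrays or left out the narrow ones, and 13 to 18 when each array was left out in turn. Between neighbouring times the 6 calls became 5 to 7 with an array left out. Against 1 h the 9 calls became 13 after quantile normalization, and 7 to 11 with an array left out. With 1 probe set for each gene only those of Serpina6, Zbtb16 and Nr3c1 remained in this count, and 5 of their tests passed. With the replicate number as a block, 14, 7 and 13 tests passed, and the calls of Fkbp5 at 6 h (adjusted p = 0.0512) and Tsc22d3 at 12 h (adjusted p = 0.0536) were lost. Nothing in the labels says that a number pairs arrays, and deviations of same-numbered arrays correlated over 0.1 in 86 of 216 pairs. As a hint from the data that numbers may be linked, the deviations of each array were correlated with those of all arrays of other groups. For 29 of 49 arrays the mean r was highest, among the 5 numbers, for arrays of their own number. The median r was 0.0672 for same-numbered pairs and −0.0115 for others. Of the single member differences against control and 1 h, 808 of 861 results under the other alternatives kept their side of the threshold, 34 newly passed and 19 no longer did, and with an array left out 966 kept it, 18 newly passed and 30 no longer did. All 75 results of Pearson's r kept their side, while the rho of Zbtb16 with Sgk1 on the complete arrays lost its call under 2 of 3 alternatives. The causes were not tested. Differences at levels near the lowest or highest signal can be understated.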
